A study of Mus musculus and Mus musculus
Rattus norvegicus with 30 samples.

Results

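Trophoblast stem cells (TSCs) keep their identity through a small set of transcription factors, and 7 of these genes, Eomes, Elf5, Ets2, Elf3, Tfap2c, Tfap2a and Ascl2, were followed in mouse cells after induction of Cdx2. They were chosen by gene symbol for their known roles in TSCs, without a threshold on any measured value, and are 7 of the 19919 genes listed in both mouse embryonic stem cell (mESC) tables. All 7 were also listed on the mouse and on the rat allele of RMES cells, hybrid embryonic stem cells with 1 haploid genome of each species. Every one was measured in each RNA-seq library. Elf5 was too rare for the test in mESCs and on the RMES mouse allele, so 6 of the 7 were tested there.

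Cdx2 is a homeobox transcription factor of the outer cells of the early embryo, where it helps to separate the trophoblast, the future placenta, from the pluripotent inner cell mass. In TSCs it acts together with the T-box factor Eomes, the ETS factor Elf5 and the AP-2 factor Tfap2c, which bind many of the same enhancers and sustain one another's expression. Forced expression of Cdx2 in embryonic stem cells is a known way to push them toward a trophoblast state.

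The mESCs were cultured wild-type cells (WT) or cells carrying, by lentivirus, a Flag-tagged Cdx2 under a doxycycline-inducible Tet-On promoter. The transgene encoded the mouse protein (mCdx2-OE), the rat protein (rCdx2-OE) or 1 of 7 mutants of the rat protein, in which amino acids of the DNA-binding domain were changed to the mouse state. Change 1 replaces a tyrosine by phenylalanine, change 2 an alanine by serine, and change 3 removes an asparagine. The digits in the names R1, R2, R3, R12, R13, R23 and R123 give the changes each mutant carries. Each of the 10 mESC groups had 2 RNA-seq libraries. RMES cells, in which both alleles share one nucleus, had 2 RNA-seq libraries labelled WT, 1 of mCdx2-OE and 1 of rCdx2-OE. Induced cells were treated with doxycycline, and the paper describes its mESC comparison as one before and after this induction. Each induced line is a stably transduced line, and the labels do not say whether WT was the parental line or an uninduced one, nor whether libraries of a group came from separate cultures. The p values therefore measure the spread between these libraries, which may be technical.

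The 2 WT mESC libraries held 74960057 and 94686029 counts and the 18 induced libraries 12698443 to 24315929, so rare genes were measured less well after induction. RMES libraries held 36166038 to 41418817 counts for the mouse allele, and 29453412 to 35249756 for the rat allele. Cdx2 itself had 1.36 and 1.21 CPM (counts scaled to a common normalised library total) in WT mESCs, 97.9 and 127 CPM in mCdx2-OE, and 70.4 and 67.0 CPM in rCdx2-OE. In the mutants Cdx2 ranged from 37.2 to 147 CPM, and replicate 1 was above replicate 2 in each of the 7. The mESC reads were aligned to the mouse genome only, so reads of the rat transgenes count only where they align to mouse Cdx2. Levels of mouse and rat constructs may therefore not compare directly. Bulk RNA cannot tell fewer cells of a type from less RNA per cell. Marker sums moved with induction, and their part in the results was not tested. In WT, mCdx2-OE or rCdx2-OE, and mutant mESCs respectively, 9 pluripotency markers summed to 5357–5486, 3358–3907 and 4127–5447 CPM. In the same order, 8 primitive endoderm markers summed to 44.8–47.5, 90.6–93.9 and 102–122.6 CPM, and 7 primitive streak and mesoderm markers to 4.52–5.05, 1.71–2.28 and 1.78–4.0 CPM. The sums were 61.5–63.9, 33.3–45.9 and 19.2–24.2 CPM for 7 intestinal epithelium markers, and 132–133, 123.4–143 and 99.5–117 CPM for 8 surface ectoderm markers. Sums and counts of genes did not always go the same way, since a sum follows its most abundant genes. With mCdx2 and rCdx2 against WT, 5 and 6 of 8 primitive endoderm markers were called higher, 4 of 6 tested intestinal markers were higher with each (0 and 1 lower), and 4 of 6 surface ectoderm markers were higher and 1 lower with each. None of the 9 pluripotency markers was higher and 3 and 4 were lower, and 2 of 4 streak and mesoderm markers were lower. None of these mESC markers was at 0 in every library of a group. The sum of 13 trophoblast markers, of which the 7 factors are a part, was 261 CPM in both WT libraries, 866–1121 CPM with mCdx2 or rCdx2 and 325–469 CPM in the mutants.

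With intact mCdx2 or rCdx2, the mESCs gained Ets2, Ascl2 and Elf3, while Eomes went the other way and Tfap2c stayed near its WT level. Ets2 rose 4.65-fold with mCdx2 and 5.01-fold with rCdx2, Ascl2 2.63-fold and 3.82-fold, and Elf3 2.0-fold and 2.11-fold. A gene was called changed against WT at an adjusted p under 0.05 and a fold over 2. With mCdx2, 3 of the 6 tested factors were higher (Ets2, Ascl2, Elf3) and no factor lower, where 33.4% of the 16000 genes tested were called (18.4% higher, 15% lower). With rCdx2, the same 3 factors were higher and Eomes was lower, 4 of 6, where 34.5% of the genes were called (19% higher, 15.4% lower). Each comparison of a construct with WT used the same 2 WT libraries, so the comparisons are not independent of each other. The median log2 fold change of all genes was -0.03 for mCdx2-OE and -0.04 for rCdx2-OE.

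**Figure D1:**
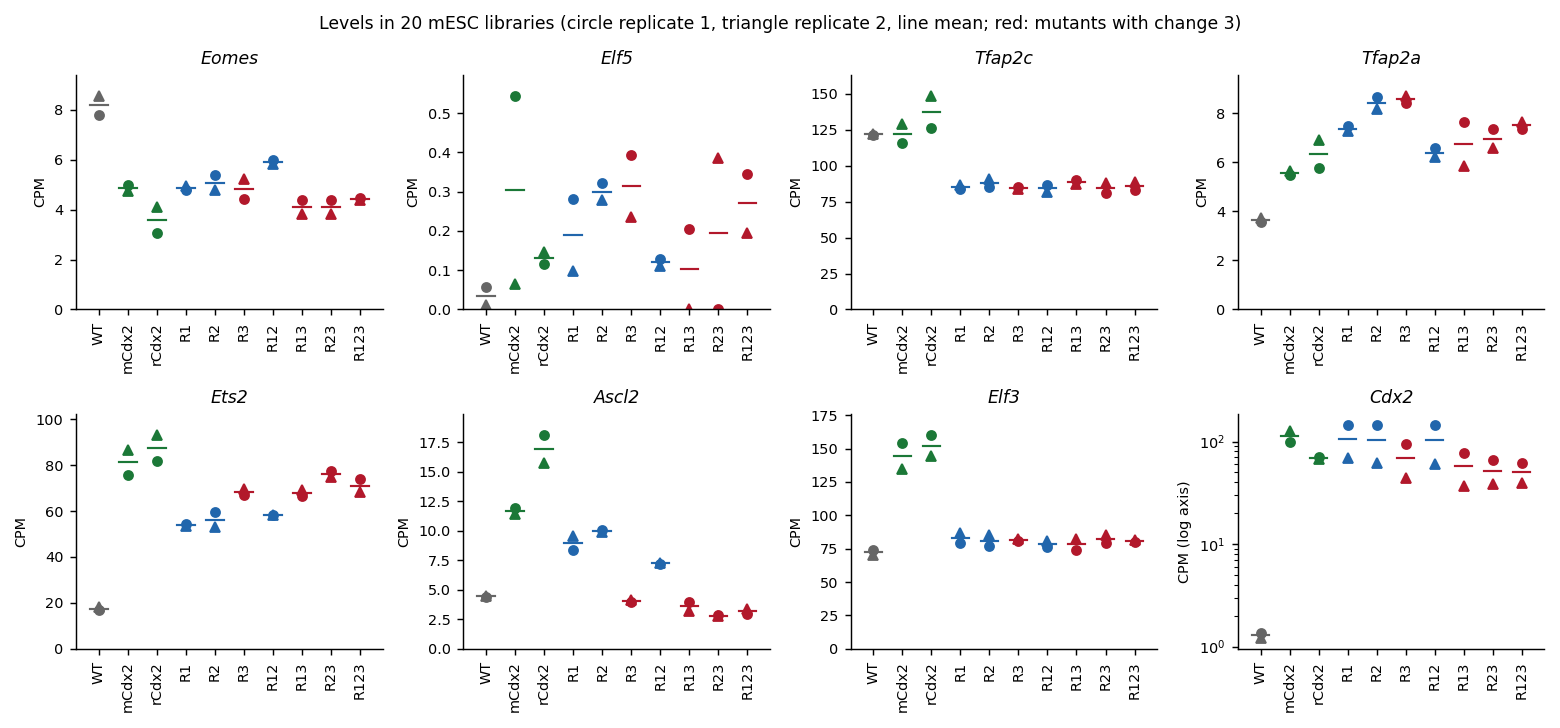
Levels of the 7 factors and of Cdx2 in the 20 mESC libraries, in CPM on linear axes from 0 (Cdx2 on a log axis). Circles are replicate 1, triangles replicate 2 and lines the means of 2 libraries; grey is WT, green intact mCdx2 or rCdx2, blue mutants without change 3 and red mutants with it. Ascl2 lies at 2.80 to 4.17 CPM in the red mutants and at 7.16 to 10.1 CPM in the blue ones.

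Eomes, a T-box factor required for trophoblast outgrowth and TSC self-renewal, had 7.81 and 8.57 CPM in the WT libraries, from 551 and 750 counts. It had 4.98 and 4.75 CPM in mCdx2-OE and 3.08 and 4.11 CPM in rCdx2-OE. Across the 14 mutant libraries it ran from 3.82 to 6.0 CPM with a median of 4.62 CPM. All 18 induced libraries lay below both WT libraries. The log2 fold change was -0.75 with mCdx2 (SE, standard error, 0.14, adjusted p = 1.5e-04 in the quasi-likelihood test of edgeR), under the 2-fold threshold, and with rCdx2 Eomes fell by 1.22 on the log2 scale (SE 0.14, adjusted p = 1.4e-06). Among the mutants it passed both thresholds with R23 only, at -1.01, whereas the other 6 ranged from -0.47 to -0.999. Its call with R23 was lost without replicate 2 of WT (-0.94) or replicate 2 of R23 (-0.90), and with R13, at -0.999, it was gained without replicate 1 of WT (-1.07) or replicate 1 of R13 (-1.08).

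Elf5, an ETS factor whose promoter methylation keeps it silent in embryonic stem cells, was close to undetected in mESCs. The WT libraries held 4 and 1 counts, mCdx2-OE 13 and 1, rCdx2-OE 3 and 2, and the 14 mutant libraries between 0 and 8. With 68 counts over the 18 induced and 5 over the 2 WT libraries, the ratio of pooled levels was 6.92, with an exact 95% counting interval of 2.83 to 22.0. For mCdx2-OE alone the ratio was 11.3 (3.84 to 40.0), and 13 of its 14 counts came from 1 library. The intervals cover counting error only. With all genes kept, edgeR called Elf5 higher with mCdx2 (3.16, adjusted p = 0.013), R2 (2.99, 0.033), R3 (3.08, 0.022) and R123 (2.85, 0.042), fits that rest on these same few counts. Of the 18 induced libraries, 16 lay above both WT values of 0.0567 and 0.0114 CPM, and 2, replicate 2 of R13 and replicate 1 of R23, lay below them at 0 counts, which allows up to 3. The WT libraries are deeper, so 1 count was enough for replicate 2 of mCdx2-OE (0.0650 CPM) to lie above the WT library with 4 counts. This order therefore says little.

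Ets2, an ETS factor needed in trophoblast, had 16.8 and 18 CPM in WT. It reached 75.8 and 86.5 CPM in mCdx2-OE and 81.9 and 93.0 CPM in rCdx2-OE. The 14 mutant libraries ran from 52.9 to 77.3 CPM with a median of 66.7 CPM. All 18 induced libraries lay above both WT libraries, with a gap from 18 to 52.9 CPM. Ets2 rose by a log2 fold change of 2.22 with mCdx2 (SE 0.09, adjusted p = 3.5e-12) and 2.32 with rCdx2 (SE 0.09, adjusted p = 1.8e-12), both from edgeR. It was the one factor called higher with all 7 mutants, at 1.63 to 2.12.

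Elf3, an epithelial ETS factor, had 73.9 and 70.6 CPM in WT, 154 and 134 CPM in mCdx2-OE and 160 and 145 CPM in rCdx2-OE. The 14 mutant libraries lay between 73.8 and 86.7 CPM, within or just above the WT values and below every library with an intact protein. The log2 fold change was 1.0006 with mCdx2 (SE 0.09, adjusted p = 3.6e-08) and 1.08 with rCdx2 (SE 0.09, adjusted p = 1.4e-08), both from edgeR. The first of these passed the 2-fold threshold by a small margin and missed it, at 0.98, when genes of low counts were kept, and at 0.89 without replicate 1 of mCdx2-OE or 0.96 without replicate 2 of WT. Without replicate 1 of rCdx2-OE, the rCdx2 value was 0.99. With the mutants the values against WT were 0.12 to 0.20, and none passed an adjusted p of 0.05.

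Tfap2c, an AP-2 factor that activates trophoblast genes together with Cdx2 and Eomes, was already abundant, at 122 CPM in both WT libraries. It had 116 and 129 CPM in mCdx2-OE, 126 and 149 CPM in rCdx2-OE, and 81.1 to 90.6 CPM in the mutants. The mCdx2-OE libraries straddled WT, and the 14 mutant libraries all lay below it. The log2 fold change was 0.00 with mCdx2 (95% interval -0.17 to 0.18) and 0.17 with rCdx2 (95% interval -0.0022 to 0.34, adjusted p = 0.072 from edgeR). With the mutants it ranged from -0.45 to -0.53, past the adjusted p and under the 2-fold threshold in each.

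Tfap2a, the AP-2 relative found in trophoblast, neural crest and surface ectoderm, had 3.54 and 3.73 CPM in WT, 5.48 and 5.66 CPM in mCdx2-OE and 5.77 and 6.89 CPM in rCdx2-OE. The mutant libraries ran from 5.86 to 8.70 CPM with a median of 7.41 CPM. All 18 induced libraries lay above both WT libraries. The log2 fold change was 0.61 with mCdx2 (SE 0.13, adjusted p = 6.5e-04) and 0.78 with rCdx2 (SE 0.13, adjusted p = 6.0e-05), both under 2-fold. It was called higher with R1, R2, R3 and R123, at 1.01, 1.20, 1.23 and 1.04, and reached 0.81 to 0.93 with the other 3 mutants. With R1 it stood below 2-fold without replicate 1 of WT (0.97) or replicate 1 of R1 (0.9990), and it passed with R13 without replicate 2 of R13 (1.07) and with R23 without replicate 2 of R23 (1.02).

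Ascl2, the imprinted basic helix-loop-helix factor that maintains the spongiotrophoblast lineage, had 4.42 and 4.49 CPM in WT. Its level was 12.0 and 11.4 CPM in mCdx2-OE and 18.1 and 15.8 CPM in rCdx2-OE. Neither pair of induced libraries overlapped the other or WT. Ascl2 rose by a log2 fold change of 1.39 with mCdx2 (SE 0.12, adjusted p = 2.2e-08) and 1.93 with rCdx2 (SE 0.11, adjusted p = 3.6e-10), from edgeR. The mutants fell into separate ranges. R1 had 8.38 and 9.58 CPM, R2 10.1 and 9.93 CPM, and R12 7.16 and 7.31 CPM, all above WT. R3 had 3.99 and 4.17 CPM, R13 3.98 and 3.18 CPM, R23 2.82 and 2.80 CPM, and R123 2.96 and 3.39 CPM, all below WT. Against WT it was called higher with R1 and R2 (1.02 and 1.17). The call with R1 was lost without replicate 2 of R1 (0.91). The value was 0.70 with R12, and -0.13, -0.33, -0.66 and -0.49 with R3, R13, R23 and R123, none past 2-fold.

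Per annotated length, the order of levels shifted with Cdx2. In WT, Tfap2c (33.1 ± 0.144 CPM per kb, SD, n = 2) and Elf3 (32.6 ± 1.07) were on top and did not differ beyond their spread. Ets2 (3.70 ± 0.186), Ascl2 (2.74 ± 0.0289), Eomes (1.97 ± 0.129), Tfap2a (0.742 ± 0.0276) and Elf5 (0.00579 ± 0.00545) followed in CPM per kb. In mCdx2-OE, Elf3 (65.2 ± 6.39 CPM per kb) stood above Tfap2c (33.3 ± 2.57), Ets2 (17.2 ± 1.6) and Ascl2 (7.21 ± 0.223). Eomes (1.17 ± 0.0388) and Tfap2a (1.14 ± 0.0260) could not be ordered there, and Elf5 (0.0518 ± 0.0576) remained the lowest. The rCdx2-OE order put Tfap2a (1.29 ± 0.162 CPM per kb) above Eomes (0.864 ± 0.175), with the first 4 factors in the same sequence as with mCdx2.

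Whether the mouse and the rat protein act differently was asked by setting mCdx2-OE against rCdx2-OE. None of the 6 tested factors differed at an adjusted p under 0.05 in edgeR's test, and DESeq2 gave the same count of 0. At an unadjusted p under 0.05, 2 of the 6 differed, Ascl2 and Eomes, and 857 of the 16000 genes did. At the adjusted threshold 3 of the 16000 genes (0.0187%) passed. Ascl2 differed by -0.54 on the log2 scale, mouse minus rat protein (95% interval -0.78 to -0.29, adjusted p = 0.19), and Eomes by 0.48 (95% interval 0.13 to 0.82, adjusted p = 0.69). For Tfap2c, Tfap2a, Ets2 and Elf3 the intervals lay between -0.47 and 0.13.

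The 3 changes in the rat protein were then separated over the 16 libraries of rCdx2 and its mutants, with an additive term for each. No factor passed for change 1 or change 2 in edgeR's test, and neither did any of the 15114 genes (0%), although 1995 and 1569 genes had an unadjusted p under 0.05. Of the 6 factors, Ascl2 and Elf3 had an unadjusted p under 0.05 for change 1 and Ascl2 for change 2, and DESeq2 also called 0. Change 3 passed for 1 of the 6, Ascl2, where 36.6% of all genes passed (18.4% lower). Ascl2 was lower with change 3, with a log2 difference of -1.62 (SE 0.13, 95% interval -1.89 to -1.34, adjusted p = 2.4e-07). Its differences were -0.40 for change 1 (95% interval -0.67 to -0.13) and -0.47 for change 2 (95% interval -0.74 to -0.20), neither past the adjusted threshold. Among these constructs rCdx2-OE alone carries none of the changes, so its gap to the mutants can enter all 3 terms. Cdx2 RNA was also lower in the mutants with change 3, at 61.9–94.4 CPM against 145–147 CPM in those without among replicate 1 libraries, and at 37.2–44.3 CPM against 60.6–68.8 CPM among replicate 2 libraries. In rCdx2-OE, also without change 3, Cdx2 had 70.4 CPM in replicate 1, inside the range of the mutants with change 3. It had 67.0 CPM in replicate 2, inside the range of those without. The part of the Cdx2 level in these differences was not tested.

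Because rCdx2-OE stood apart from all mutants for several factors, the contrast was repeated within the 7 mutants, a comparison added after the values had been seen. Ascl2 was lower with change 3 (-1.45, SE 0.10, adjusted p = 3.2e-09 in edgeR), and Ets2 was higher (0.35, SE 0.04, adjusted p = 1.4e-06), where 51.8% of the 14699 genes passed. Within these mutants Cdx2 RNA went with change 3 in both replicates. It had 61.9–94.4 CPM with the change against 145–147 CPM without in replicate 1, and 37.2–44.3 against 60.6–68.8 CPM in replicate 2. Change 3 and the Cdx2 level cannot be told apart here. The 8 libraries with change 3 held 66.5–77.3 CPM of Ets2 against 52.9–59.5 CPM in the 6 without, and these ranges did not overlap. Change 1 and change 2 passed for none of the 6 factors here, and for 0.0272% and 0% of all genes. Relative to the median of its chromosome, Ascl2 differed here by -0.25 for change 1 and -0.26 for change 2. Ascl2 and Tfap2a had an unadjusted p under 0.05 for change 1, as 1106 of the 14699 genes had, and Ascl2 and Ets2 for change 2, as 1423 genes had. With change 3, Eomes differed by -0.27 (adjusted p = 0.034), a call lost without replicate 1 or without replicate 2 (adjusted p of 0.17 and 0.21). Tfap2c, Tfap2a and Elf3 had intervals between -0.24 and 0.15.

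For Elf3, Tfap2c and Ascl2 the 14 mutant libraries did not overlap the 4 libraries of the intact proteins. The share of all genes that separate these libraries in the same way is not given, so this is not a trait of these factors. In a further comparison added after the values had been seen, the 14 mutant libraries were lower than the 4 of mCdx2-OE and rCdx2-OE in Ascl2 (log2 difference -1.48), Elf3 (-0.88), Tfap2c (-0.59) and Ets2 (-0.40). Tfap2a was higher (0.32), and Eomes, at 0.19, did not pass. That is 5 of 6 factors, where 64% of all genes passed. Ets2 was lost without replicate 2 (-0.28, adjusted p = 0.058) and Tfap2a without replicate 1 (0.19, adjusted p = 0.40), in edgeR's test. R123, which carries the mouse state at all 3 positions, was also set against mCdx2-OE, where 42.4% of genes passed. Ascl2 (-1.88), Elf3 (-0.85) and Tfap2c (-0.51) were lower and Tfap2a (0.43) higher with R123, 4 of 6. The Tfap2a call was lost without replicate 1 of mCdx2-OE or either replicate of R123 (adjusted p 0.065 to 0.11), with DESeq2 (0.064) and with library totals (0.055), and Ets2 was gained without replicate 1 of mCdx2-OE (-0.28). Against rCdx2-OE, R123 was lower in Ascl2 (-2.42), Elf3 (-0.92), Tfap2c (-0.67) and Ets2 (-0.30), also 4 of 6, where 46.3% of genes passed, and the Ets2 call was lost without replicate 2 of rCdx2-OE or of R123 (adjusted p of 0.11 and 0.095), while Eomes was gained without the former (0.53). Cdx2 RNA was lower in R123, at 61.9 and 39.0 CPM, than in mCdx2-OE (97.9 and 127 CPM) or rCdx2-OE (70.4 and 67.0 CPM). Levels of mouse and rat constructs may not compare directly, and the part of the Cdx2 level was not tested. Whether the mutant and the intact libraries were made together is not stated in the labels, and the construct and such a batch cannot be told apart.

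Against WT, the count of called factors among 6 was 3 with R1 (23.2% of all genes called), 3 with R2 (23.4%), 2 with R3 (25.6%), 1 with R12 (23.7%), 1 with R13 (27.8%), 2 with R23 (28.7%) and 2 with R123 (28.9%). Ets2 is among them each time, so that for R12 and R13 it is the only one.

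Genes that varied most like each factor over the 20 mESC libraries were listed among 11897 genes as a description, and these libraries share the contrast of WT with induced cells. For Eomes the 3 highest Pearson r were with Bnc2 (0.93), 2410004B18Rik (0.90) and Sept11 (0.89), for Tfap2c with Cdc42se1 (0.97), Rassf3 (0.97) and Basp1 (0.96), and for Tfap2a with AI427809 (0.92), Ugcg (0.92) and Pitrm1 (0.91). Those of Ets2 were Dcbld2, Gng12 and Lyn (all 0.99). Those of Ascl2 were Phlda2 (0.98), Cxcl12 (0.97) and F2rl1 (0.97), and those of Elf3 Gsn, Rhoq and Tpm1 (all 0.98).

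The other TSC regulators, a list of 16 genes, split in both directions. With mCdx2, 6 were called higher and 4 lower of 16 tested, and with rCdx2, 5 higher and 5 lower. Gata2 and Id2 led the rises with mCdx2 (5.25 and 4.65 on the log2 scale), and Bmp4, a signal of the early embryo, was lower (-3.59). With rCdx2 the leading genes were Gata2 (5.71), Id2 (4.73) and Gata3 (3.39). The median of the list was -0.04 with mCdx2 and -0.09 with rCdx2. Of 16 family relatives of the 7 factors, 10 could be tested, and 5 were higher and 2 lower with each protein, with medians of 1.20 and 0.93. Ets1 (2.76 with mCdx2, 2.78 with rCdx2), Elf4 (2.13 and 2.36) and Elf1 (1.13 and 1.25), all ETS factors like Ets2, Elf3 and Elf5, rose with both.

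Chromatin around the genes was read from ATAC-seq of 1 WT and 1 mCdx2-OE library and from Cdx2 ChIP-seq of 1 mCdx2-OE and 1 rCdx2-OE library in mESCs, and likewise ChIP-seq of RMES cells on the mouse genome. With 1 library per condition there is no replicate check, and intervals cover counting error only. Peaks within 30 kb of a gene start were used. The genes start and end in GRCm38 at chr9:118478212-118486132 (Eomes, plus strand), chr2:103411688-103450989 (Elf5, plus), chr16:95702075-95721051 (Ets2, plus), chr1:135253575-135258568 (Elf3, minus), chr2:172549593-172558622 (Tfap2c, plus), chr13:40715302-40738376 (Tfap2a, minus) and chr7:142966829-142969264 (Ascl2, minus). The windows also held the starts of Golga4, near Eomes, and Rnpep, near Elf3.

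**Figure D2:**
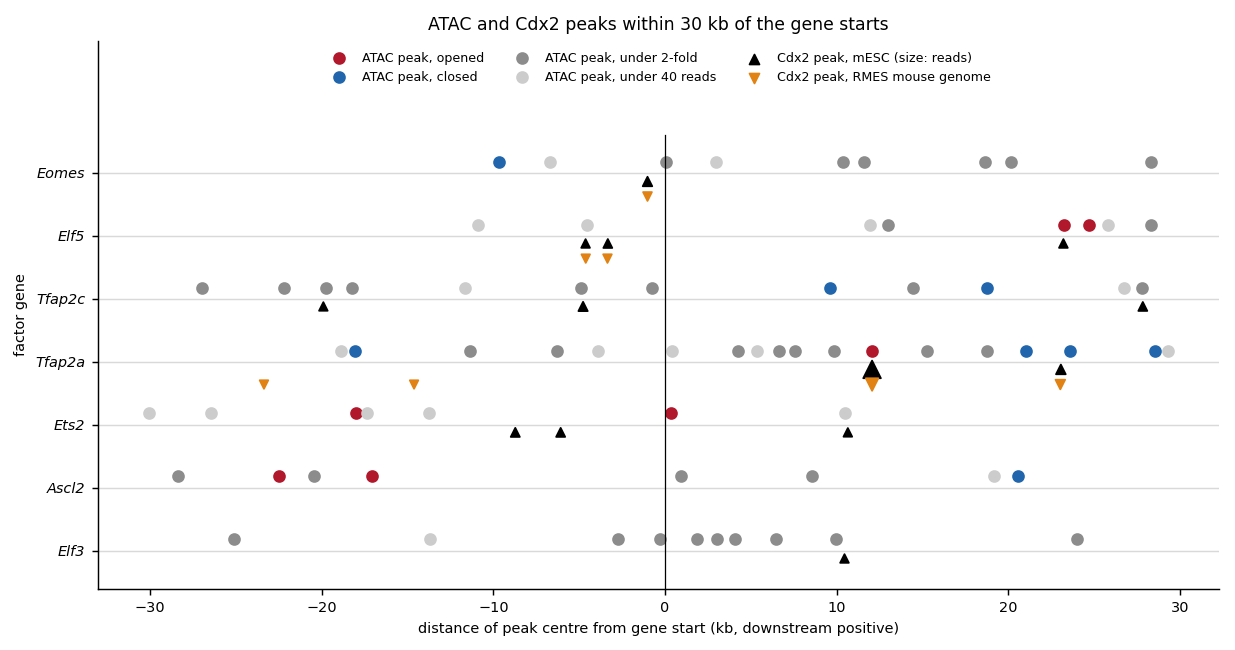
ATAC peaks (circles) and Cdx2 ChIP peaks (triangles) within 30 kb of the start of each factor gene, by distance of the peak centre from the start in kb, with downstream positive. Opened and closed peaks differ over 2-fold between WT and mCdx2-OE with at least 40 scaled reads, and triangle size follows the reads in the peak. The largest Cdx2 peak, with 769 reads, lies 12.1 kb into Tfap2a on an opened ATAC peak, and Ascl2 has none.

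Of the 72 ATAC peaks in these windows, 7 opened and 8 closed over 2-fold with mCdx2, against 9.56% and 14.3% of all 122350 ATAC peaks. Opened peaks lay near Elf5 (2), Ets2 (2), Ascl2 (2) and Tfap2a (1). Closed peaks lay near Tfap2a (4), Tfap2c (2), Eomes (1) and Ascl2 (1), and the 10 peaks near Elf3 held neither kind. Thus 4 of the 7 genes had an opened peak, where 29.5% of 21911 protein-coding genes did, and 4 had a closed one, where 40.5% did. Cdx2 peaks numbered 13 near 6 of the 7 genes, where 72.5% of protein-coding genes had one. In RMES cells there were 7 near 3 of the 7 genes (Eomes, Elf5 and Tfap2a), where 63.7% had one. Of the 13 mESC peaks, 5 overlapped an RMES peak, against 64.8% of all mESC peaks. The mouse and rat proteins differed over 2-fold in 1 of the 13, a peak 19908 bases upstream of Tfap2c with 34 and 11 reads, against 0.912% of all peaks.

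Tfap2a carried the most prominent site. A Cdx2 peak in its intron, centred 12055 bases from the start, held 408 reads with mCdx2 and 361 with rCdx2, at percentile 99.5 of all mESC peaks. In RMES cells the peak there held 299 reads (percentile 97.0). The ATAC peak over it went from 3 reads in WT to 56 with mCdx2, a 13.8-fold rise of the scaled counts (exact 95% counting interval 4.48 to 68.8). The 4 closed peaks of Tfap2a had 33, 65, 109 and 49 reads in WT and 18, 29, 53 and 21 with mCdx2. The second of these overlapped a Cdx2 peak over the end of the gene, 23053 bases from the start, with 60 reads for mCdx2 and 46 for rCdx2 (percentile 60.0) and 103 reads in RMES cells, the second largest of the 13. The central 300 bases of the Cdx2 peak, chr13:40726172-40726471 of GRCm38 on the plus strand, are printed because they hold the strongest Cdx2 signal near any of the 7 genes. Capitals in this and the following sequences mark the 7-base Cdx2 motif letters CAATAAA and, with other first bases, CCATAAA or TAATAAA or TCATAAA, on either strand.
Tfap2a intron, Cdx2 peak: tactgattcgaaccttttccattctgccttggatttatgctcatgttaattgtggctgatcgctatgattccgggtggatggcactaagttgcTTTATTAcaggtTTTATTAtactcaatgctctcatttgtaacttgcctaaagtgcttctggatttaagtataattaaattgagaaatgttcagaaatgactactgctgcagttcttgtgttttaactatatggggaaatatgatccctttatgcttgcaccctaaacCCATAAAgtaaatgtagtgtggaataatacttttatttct

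Matches to these letters were present in 73.0% of the central 300 bases of 64120 Cdx2 peaks, in 17.8% of 104921 ATAC peaks and in 14.4% of 32851 RefSeq promoters of 300 bases. The Tfap2a stretch held 3 matches. A match is a description of the letters and no measure of binding.

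Elf5, nearly silent in RNA, had 2 opened ATAC peaks in its intron. The first, 23213 bases from the start, went from 14 to 81 reads (4.27-fold, interval 2.40 to 8.16) and overlapped a Cdx2 peak of 53 reads. That Cdx2 peak was at percentile 18.2 of all mESC peaks and overlapped no peak in RMES cells. The second, 24693 bases from the start, went from 37 to 162 reads (3.23-fold, interval 2.25 to 4.75) without an overlapping Cdx2 peak. The Cdx2 peaks 4633 and 3338 bases upstream held 50 and 62 reads in mESCs, and both overlapped a peak of 44 and 48 reads in RMES cells. The sequence at chr2:103434739-103435038, plus strand of GRCm38, is shown because here Cdx2 signal and opening coincide, and it held 2 matches.
Elf5 intron, Cdx2 peak: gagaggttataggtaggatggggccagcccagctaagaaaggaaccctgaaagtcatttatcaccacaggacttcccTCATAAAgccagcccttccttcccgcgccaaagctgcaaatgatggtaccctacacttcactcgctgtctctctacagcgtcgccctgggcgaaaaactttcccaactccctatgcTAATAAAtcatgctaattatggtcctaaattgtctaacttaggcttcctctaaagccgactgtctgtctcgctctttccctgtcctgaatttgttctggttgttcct

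Eomes, the factor that went down, had its single Cdx2 peak 1044 bases upstream of the start, with 47 reads for mCdx2 and 48 for rCdx2 (percentile 54.2) and 58 reads in RMES cells. The ATAC peak at its start held 215 reads in WT and 230 with mCdx2, under 2-fold. A peak 9648 bases upstream went from 41 to 4 reads, a ratio of 0.0720 of the scaled counts (interval 0.0187 to 0.199), with no Cdx2 peak over it. The upstream Cdx2 peak at chr9:118477019-118477318, plus strand of GRCm38, is shown as the Cdx2 site nearest to any of the 7 starts, and its 2 matches are separated by 1 base.
Eomes upstream, Cdx2 peak: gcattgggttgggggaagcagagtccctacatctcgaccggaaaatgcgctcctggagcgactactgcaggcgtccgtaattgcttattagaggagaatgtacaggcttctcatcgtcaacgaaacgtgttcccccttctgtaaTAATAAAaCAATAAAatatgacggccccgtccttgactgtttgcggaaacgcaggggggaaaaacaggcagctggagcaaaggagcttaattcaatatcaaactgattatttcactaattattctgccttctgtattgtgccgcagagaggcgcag

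Ascl2, which rose with both proteins, had no Cdx2 peak in its window, the nearest one lying 99624 bases away in mESCs (55 reads) and 135671 bases away in RMES cells (99 reads). Its 2 opened ATAC peaks lay 17081 bases upstream (9 to 50 reads, 4.10-fold, interval 2.00 to 9.48) and 22488 bases upstream in an intron of Tspan32os (13 to 89 reads, 5.05-fold, interval 2.81 to 9.86). One downstream peak, 20527 bases from the start, closed from 30 to 8 reads. The nearer opened peak, chr7:142986196-142986495 on the plus strand of GRCm38, held 1 match and is shown as an opened site without a Cdx2 peak, while the farther one held 0.
Ascl2 upstream, opened ATAC peak: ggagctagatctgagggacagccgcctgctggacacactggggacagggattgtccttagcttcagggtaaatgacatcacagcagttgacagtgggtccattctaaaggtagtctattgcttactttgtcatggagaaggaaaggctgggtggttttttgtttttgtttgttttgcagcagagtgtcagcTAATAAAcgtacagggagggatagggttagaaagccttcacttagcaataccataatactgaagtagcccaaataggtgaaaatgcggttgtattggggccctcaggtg

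Ets2 opened at its own start, where the ATAC peak went from 205 to 675 reads (2.43-fold, interval 2.08 to 2.86), and 18028 bases upstream (11 to 32 reads, 2.15-fold, interval 1.05 to 4.72). Its 3 Cdx2 peaks, 8728 and 6085 bases upstream and 10644 bases downstream, held 70, 67 and 48 reads and overlapped no opened peak. Neither opened stretch of Ets2 held a motif match. Elf3 had 1 Cdx2 peak of 48 reads (percentile 12.4), 10413 bases downstream of the start, and its ATAC peak at the start went from 153 to 292 reads, under 2-fold after scaling. Tfap2c had 3 Cdx2 peaks of 45, 83 and 64 reads, and its 2 closed ATAC peaks, 9591 and 18746 bases downstream, went from 33 to 14 and from 170 to 107 reads. Of the RefSeq promoters of 300 bases found for 6 of the 7 genes, the Eomes promoter and 1 of 2 for Tfap2a held a match.

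In RMES cells the libraries labelled WT already held Cdx2 RNA, which must be read beside every value that follows. Cdx2 had 129 and 127 CPM on the mouse and 453 and 440 CPM on the rat allele in the WT libraries. On the mouse allele it had 968 CPM in mCdx2-OE and 4.45 CPM in rCdx2-OE, and on the rat allele 47.2 CPM and 880 CPM. Over both alleles together, CPM were taken from raw library totals, without normalisation. On that scale Cdx2 had 247 and 241 CPM in the libraries labelled WT, 592 in mCdx2-OE and 474 in rCdx2-OE. These values do not compare directly with the normalised CPM of each allele. Normalisation factors were lower in WT than in the induced libraries on both alleles, so raw totals make this rise look larger. On the allele of the transgene's own species, transgene and endogenous reads cannot be told apart. On the other allele Cdx2 was lower than in WT, with 186 mouse counts in rCdx2-OE against 4187 and 4541 in WT, and 1770 rat counts in mCdx2-OE against 12384 and 13178 in WT. The 2 induced libraries were treated as replicates of Cdx2-OE, as the study does. On the mouse allele of libraries labelled WT and Cdx2-OE respectively, 9 pluripotency markers summed to 7416–7458 and 2843–2884 CPM, and 8 primitive endoderm markers to 236–242 and 52.9–55.5 CPM. The 8 intestinal epithelium markers summed to 307–341 CPM in WT, with Cdh17, Fabp2 and Krt20 at 0, and 27.5–29.6 CPM in Cdx2-OE. For 8 primitive streak and mesoderm markers the sums were 24.4–25.5 CPM in WT, with Mesp1 and Msgn1 at 0, and 2.22–2.29 CPM in Cdx2-OE, and for 8 of surface ectoderm 398–414 CPM, with Krt14 at 0, and 297–306 CPM. The rat allele, in the same order of groups, had sums of 4181–4222 and 1468–1556 CPM for 7 of the 9 pluripotency markers, 437–452 and 306–347 CPM for primitive endoderm, 79.2–85.2 and 19.7–23.7 CPM for intestinal epithelium (Cdh17, Fabp2 and Krt20 at 0 in WT), 0.901–1.46 and 1.38–1.47 CPM for 7 streak and mesoderm markers, and 254–260 and 231–234 CPM for 7 of surface ectoderm. Trophoblast markers summed to 479–493 and 1262–1451 CPM on the mouse allele and to 350–369 and 1121–1238 CPM on the rat allele. As in mESCs, counts of genes and sums could differ in direction. For the mouse allele, 5 of 8 primitive endoderm markers were called higher and 1 lower, 4 of 6 intestinal markers higher and 2 lower, 3 of 6 surface ectoderm markers higher and 0 lower, 1 of 6 streak and mesoderm markers higher and 2 lower, and 6 of 9 pluripotency markers lower. The rat allele, in the same order, had 3 higher and 1 lower of 8, 2 higher and 3 lower of 6, 4 higher of 6, 1 higher of 3, and 6 lower of 7. The part of these shifts in the results was not tested.

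In RMES cells Ascl2 rose and Tfap2a fell on the mouse allele with Cdx2-OE, and on the rat allele Tfap2c, Elf3, Ascl2 and Elf5 rose and Tfap2a fell. On the mouse allele 2 of the 6 tested factors were called, where 44.5% of 16887 genes were (28.3% higher, 16.1% lower), and on the rat allele 5 of 7, where 42.5% of 14627 were (28.3% higher, 14.2% lower). The median log2 fold change of all genes was 0.08 on the mouse allele and 0.07 on the rat allele.

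**Figure D3:**
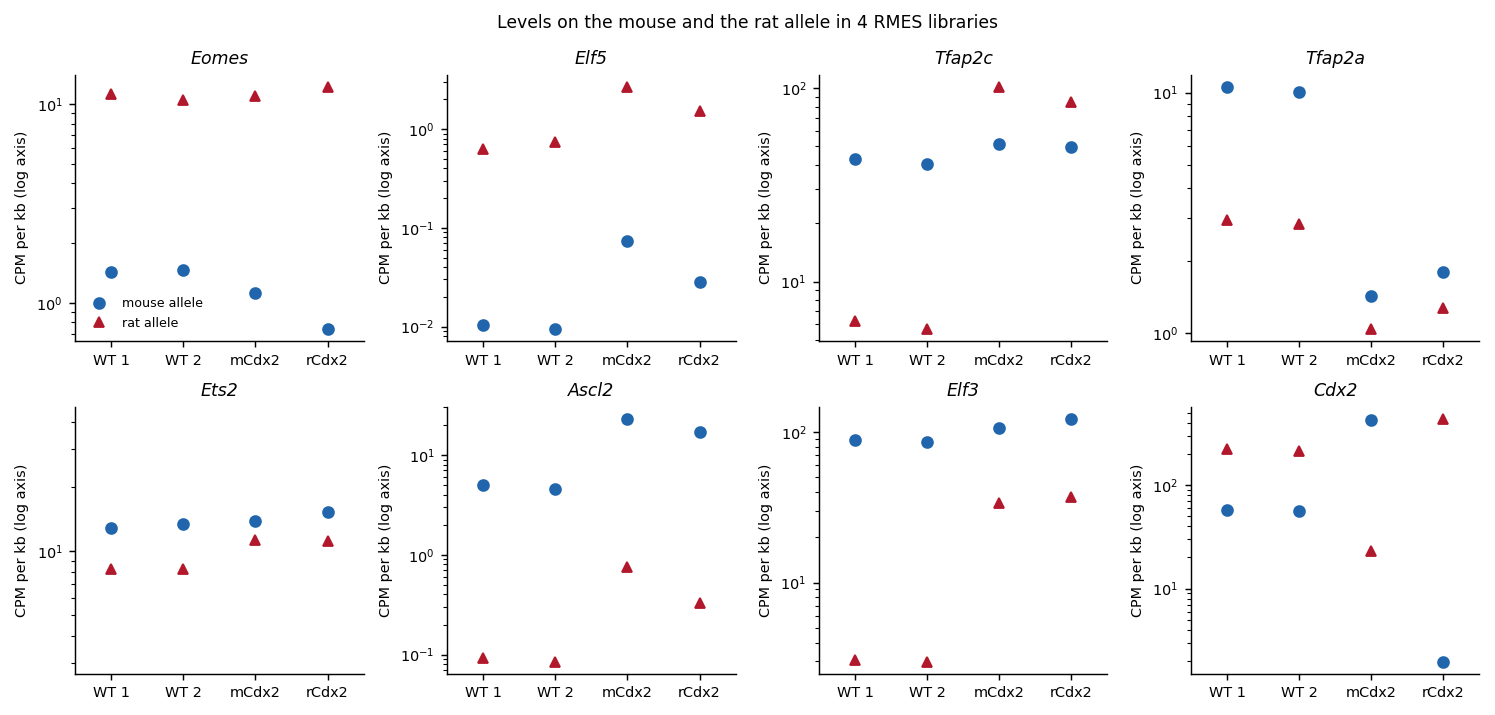
Levels of the 7 factors and of Cdx2 on the mouse (blue circles) and rat (red triangles) allele of the 4 RMES libraries, in CPM per kb of annotated exon length on a log axis. Tfap2c and Elf3 lie far lower on the rat allele in both libraries labelled WT than in the induced ones, and change little on the mouse allele.

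Tfap2c showed the largest difference between the alleles in its response to Cdx2 among the 7. Its rat allele had 11.1 and 10.1 CPM in WT, 182 CPM in mCdx2-OE and 152 CPM in rCdx2-OE. Its mouse allele had 158 and 149 CPM in WT, 190 CPM in mCdx2-OE and 182 CPM in rCdx2-OE. The induced libraries lay above WT on both alleles. The log2 fold change was 3.97 on the rat allele (SE 0.09, adjusted p = 2.4e-14), past the threshold, and 0.27 on the mouse allele (SE 0.06, adjusted p = 6.9e-04), under 2-fold, both from edgeR. The mouse allele took 94.4% and 94.6% of the Tfap2c counts in WT, 53.9% in mCdx2-OE and 56.7% in rCdx2-OE.

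Elf3 followed the same pattern. On the rat allele it had 6.29 and 6.14 CPM in WT, 69.3 CPM in mCdx2-OE and 76.4 CPM in rCdx2-OE, a log2 fold change of 3.55 (SE 0.09, adjusted p = 6.6e-14). On the mouse allele it had 196 and 189 CPM in WT and 235 and 268 CPM in the induced libraries, a log2 fold change of 0.39 (SE 0.07, adjusted p = 2.0e-04), under 2-fold. Again the induced libraries were higher on both alleles. The mouse share of Elf3 counts was 97.4% in both WT libraries and 79.1% and 79.3% in mCdx2-OE and rCdx2-OE.

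Tfap2a fell on both alleles. The mouse allele went from 51.9 and 49.5 CPM in WT to 6.96 CPM in mCdx2-OE and 8.75 CPM in rCdx2-OE, and the rat allele from 9.73 and 9.37 CPM to 3.44 and 4.18 CPM. Both induced libraries lay well below both WT libraries. Tfap2a fell by 2.69 on the log2 scale on the mouse allele (SE 0.10, adjusted p = 1.4e-10) and by 1.32 on the rat allele (SE 0.16, adjusted p = 1.4e-06), from edgeR. In mESCs the same gene was higher, not lower, in all 18 induced libraries, from a WT level of 3.54 and 3.73 CPM that lay below all 4 RMES values on the mouse allele, in tables normalised separately.

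Ascl2 was almost wholly of mouse origin, with 97.2% to 98.5% of its counts on the mouse allele in the 4 libraries. The mouse allele had 8.08 and 7.44 CPM in WT, 36.9 CPM in mCdx2-OE and 27.5 CPM in rCdx2-OE. The rat allele held 4 and 4 counts in WT and 44 and 20 in the induced libraries. The induced libraries were higher on each allele, though the rat values rest on few counts. Ascl2 rose by a log2 fold change of 2.05 on the mouse allele (SE 0.14, adjusted p = 2.0e-08) and of 2.57 on the rat allele (SE 0.57, adjusted p = 6.9e-04), in edgeR's test. As an imprinted gene, Ascl2 is read mainly from the maternal chromosome, and the labels do not give the parent of origin of the alleles.

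Elf5 had 13 and 17 counts on the rat allele in WT, 77 in mCdx2-OE and 45 in rCdx2-OE, and rose there by 1.62 on the log2 scale (SE 0.37, adjusted p = 9.1e-04 from edgeR). On the mouse allele it had 2 and 2 counts in WT, 18 in mCdx2-OE and 7 in rCdx2-OE, a ratio of pooled levels of 5.10 (exact 95% counting interval 1.76 to 20.1). Both alleles had more counts in each induced library than in either WT library.

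Ets2 did not pass the 2-fold threshold on either allele. It had 60.3 and 63.2 CPM on the mouse allele in WT, 64.8 CPM in mCdx2-OE and 71.4 CPM in rCdx2-OE, with a log2 fold change of 0.14 (95% interval -0.0025 to 0.28, adjusted p = 0.064 from edgeR). On the rat allele it had 29.9 and 29.8 CPM in WT and 40.6 and 40.4 CPM in the induced libraries, a log2 fold change of 0.44, under 2-fold. Ets2 lies on mouse chromosome 16, whose 490 tested genes had a median log2 fold change of -0.78 on the mouse allele, against -0.03 to 0.20 for the chromosomes of the other factors. Relative to its chromosome, Ets2 was 0.92 higher. The part of that chromosome-wide shift in the Ets2 value was not tested.

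Eomes had more counts on the rat than on the mouse allele in all 4 libraries, as the rare Elf5 had and the other 5 factors did not. The rat allele had 23.7 and 22.1 CPM in WT, 23.1 CPM in mCdx2-OE and 25.8 CPM in rCdx2-OE, overlapping groups with a log2 fold change of 0.10 (95% interval -0.10 to 0.29). The mouse allele had 5.95 and 6.13 CPM in WT, 4.67 CPM in mCdx2-OE and 3.08 CPM in rCdx2-OE, with a log2 fold change of -0.64 (SE 0.20, adjusted p = 0.0089 from edgeR), under 2-fold. The mouse share was 23% and 24.9% in WT, 18.5% in mCdx2-OE and 11.6% in rCdx2-OE. Levels of the alleles depend on annotation, since Eomes has 4155 annotated bases in mouse and 2100 in rat.

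**Figure D4:**
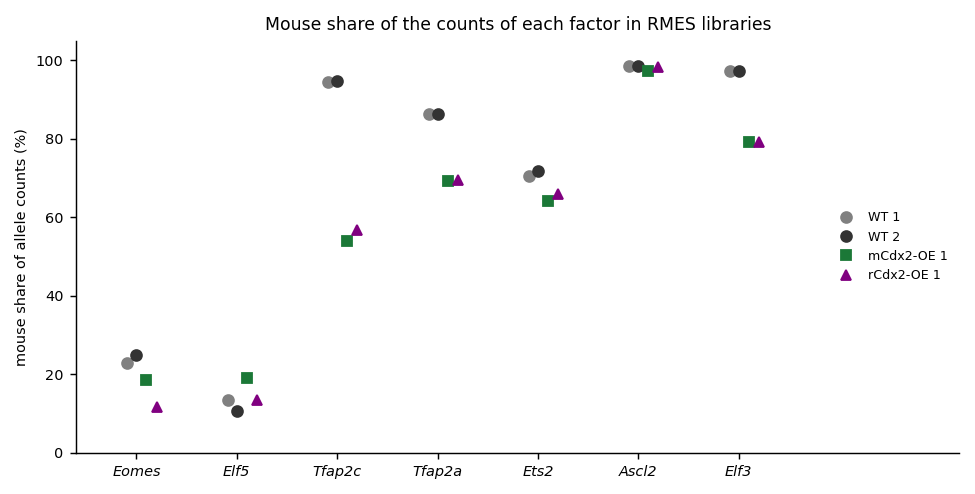
Share of the counts of each factor that fell on the mouse allele, in percent of mouse plus rat counts, in the 4 RMES libraries. Circles are the libraries labelled WT, the square mCdx2-OE and the triangle rCdx2-OE; the Tfap2c share lies at 94.4% and 94.6% in WT and at 53.9% and 56.7% with Cdx2-OE.

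Whether the response differed between the alleles was tested as the interaction of allele and induction, with the library as a block, so that both alleles shared one cellular environment. The change was larger, or less negative, on the rat allele for 5 of the 7 factors, where 62.1% of 13605 paired genes passed (31.8% in that direction). The log2 difference, rat minus mouse, was 3.72 for Tfap2c (adjusted p = 1.3e-22), 3.19 for Elf3 (6.3e-22), 1.39 for Tfap2a (3.0e-08), 0.76 for Eomes (0.0014) and 0.33 for Ets2 (5.5e-04), all adjusted p values from edgeR. With DESeq2 the Eomes value missed the threshold (adjusted p = 0.055). For Ascl2 the difference was 0.53 (95% interval -0.59 to 1.65) and for Elf5 -0.62 (95% interval -2.47 to 1.23), intervals that leave room for differences over 2-fold in one direction or both. On the mouse allele, chromosome 16 genes had a median of -0.78, and relative to it the Ets2 change was 0.92. No such median was taken for the rat allele, where the Ets2 change was 0.44. The direction of the Ets2 difference relative to both chromosomes is thus not known, and the part of the chromosome-wide shift in it was not tested.

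The RMES mouse allele was also compared with mESCs, in which the same mouse genes respond in a wholly mouse cell. The cell type goes here with the assignment of reads to a genome and with the ploidy of the mouse genome, and these cannot be told apart. The change differed for 3 of the 7 factors (4 without replicate 2 of the mESC libraries, when Tfap2c passed at 0.24), where 53.2% of 17912 genes passed. RMES minus mESC, the log2 difference was -3.42 for Tfap2a (adjusted p = 3.7e-08), -2.17 for Ets2 (8.4e-08) and -0.69 for Elf3 (5.6e-04), from edgeR. The median of chromosome 16 genes in this comparison was -0.97. Eomes, Elf5, Tfap2c and Ascl2 did not pass, with intervals of -0.36 to 0.93, -3.59 to 2.55, -0.12 to 0.42 and -0.27 to 0.93. The libraries labelled WT that serve as the base differ in Cdx2 between the cell types, at 127 to 129 CPM on the RMES mouse allele and 1.21 to 1.36 CPM in mESCs.

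**Figure D5:**
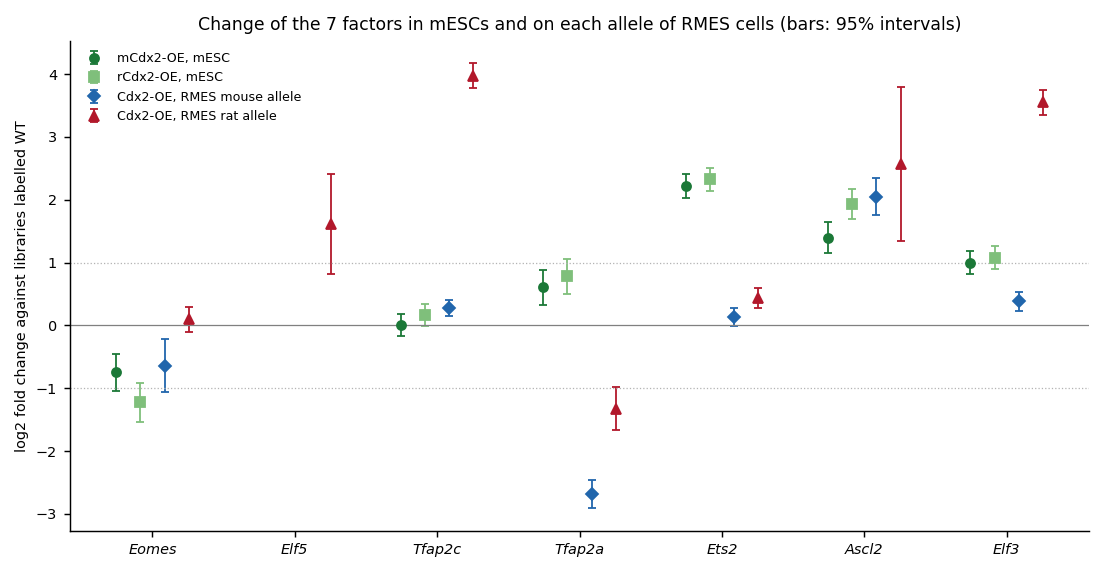
Log2 fold change of each factor against the libraries labelled WT, with 95% intervals, for mCdx2-OE and rCdx2-OE in mESCs and for Cdx2-OE on each RMES allele. Dotted lines mark 2-fold, and Elf5 was tested only on the RMES rat allele; Tfap2a lies above 0 in mESCs and below it on both RMES alleles.

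The other TSC regulators in RMES cells were called higher in 5 and lower in 7 of 16 on the mouse allele, and in 5 and 7 of 15 on the rat allele, with medians of -0.81 and -0.92. On the mouse allele Id2 (5.4), Bmp4 (-3.94) and Gata3 (3.39) moved most on the log2 scale, and on the rat allele Gata3 (6.44), Gata2 (6.41) and Fgfr2 (3.61). Of the family relatives, 4 rose and 2 fell of 11 tested on the mouse allele, and 3 rose and 1 fell of 7 on the rat allele, with medians of 1.09 and 0.97. Elf4 rose on both (2.28 and 3.12), Ets1 by 2.34 on the mouse allele and Elf1 by 1.48 on the rat allele, where Etv5 was lower (-2.77). T, a T-box relative of Eomes that marks the primitive streak, had 440 and 516 counts on the mouse allele in WT and 3 and 0 in the induced libraries.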

How the data were processed

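The values for RNA (per gene) and for open chromatin and Cdx2 binding (per peak) were read counts, deposited by the authors without normalisation. According to the study's methods and processing notes, RNA-seq reads were aligned with STAR 2.7.0d to mm10 (RMES reads assigned to mm10 or rn6) and counted by strand with featureCounts. ATAC-seq reads were trimmed with Fastp, and ChIP-seq reads with cutadapt 2.6, both were aligned with Bowtie2 2.3.4.3, duplicates were removed with Sambamba (ATAC-seq) or Picard 2.6.0 (ChIP-seq), and peaks were called with MACS2 on merged reads. Replicate 2 of mESCs was counted separately, without incomplete and chimeric pairs. Reads equal in both genomes, or in near-identical genes, cannot be assigned by such counts.

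Groups came from the sample labels. Counts of the 19919 genes shared by the mESC tables were analysed in R 4.3.3 with edgeR 4.0.16 (TMM, filterByExpr, quasi-likelihood test, Benjamini-Hochberg over all genes tested), and DESeq2 1.42.0 was an alternative. The 20 mESC libraries shared 1 model. CPM used TMM library sizes (raw totals for Cdx2 over both RMES alleles), and CPM per kb the annotated exon length. Intervals of 95% came from the t distribution of the quasi-likelihood fit. Counts in peaks were scaled so that libraries had equal totals (their mean), with 1 added before log2 ratios. ATAC peaks totalled 6109353 (WT) and 8277850 counts, mESC ChIP peaks 6223794 and 5550846, and RMES ChIP peaks on the mouse genome 4357448 and 3387074. Positions are GENCODE on GRCm38, the assembly of mm10, sequences were read from the RefSeq genome of that build, and promoters were those of RefSeq. The rat ChIP-seq table was not used here. Alleles were matched where both annotations used 1 symbol. Variance between RNA replicates was 2.26 to 6.29 times that of read sampling. The scripts were tested on simulated data.

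All 7 factors are named in every comparison. Of each other list the count called is given, with its 3 genes of largest change among those averaging 50 counts or more, and of likeness the 3 highest correlations. The 7 factors, the lists and the thresholds were chosen with earlier results of these data known. Alternatives were other normalisations, count filters, fold thresholds, windows and scalings, a replicate block, and leaving out single libraries. Comparisons among the mutants, and of mutants with intact proteins, were added after the values had been seen.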

Additional observations from a re-analysis of the deposited data

Results flagged for a closer look

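The response to Cdx2 differed between the 2 alleles of RMES cells, by a test of the difference itself, for 5 of the 7 factors. Of all 13605 paired genes, 62.1% passed the same test, 31.8% in the direction of these 5 factors. The log2 differences, rat minus mouse, were 0.76 for Eomes, 3.72 for Tfap2c, 1.39 for Tfap2a, 0.33 for Ets2 and 3.19 for Elf3. The Ets2 value is smaller in size than the chromosome 16 median of -0.78 on the mouse allele, whose part in it was not tested. Relative to that median the mouse change of Ets2 was 0.92, and no such median was taken for the rat allele (change 0.44). Tfap2c and Elf3 rose over 8-fold on the rat allele and under 2-fold on the mouse allele in the same libraries, which makes them the first to look at again. The libraries labelled WT held 453 and 440 CPM of Cdx2 on the rat allele, and its part in these differences was not tested.

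The response of the mouse genes also differed between RMES cells and mESCs for 3 factors. The log2 differences, RMES minus mESC, were -3.42 for Tfap2a, -2.17 for Ets2 and -0.69 for Elf3. For Tfap2a the direction itself turned, higher in the mESC libraries with Cdx2 and lower on the mouse allele of RMES cells. Ets2 lies on chromosome 16, whose genes had a median of -0.97 in the same comparison. A formal rule for outlying libraries within a group could not be applied, since no group had 4 or more libraries.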

How the results depend on the processing

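Of 1634 values recomputed under alternatives, 1508 kept their direction and call (counts: within 1.5 times), and 15 changed sign, none of them called. Without a fold threshold the counts of factors called against WT were 5 of 6 for mCdx2-OE, R1, R2, R12, R13, R23, R123 and the RMES mouse allele, and 4 for R3. Most genes moved without a fold threshold. At an unadjusted p under 0.05, 11539 of 16000 genes passed for mCdx2-OE and 10330 to 11097 for the mutants. On the RMES mouse allele 13996 of 16887 genes did. With a fold over 1.5, for which no share of all genes is given, the counts of factors were 5 for mCdx2-OE, 3 for R12 and R13, and 4 for R23. R13 had 2 under RLE normalisation, all genes with a count, a mean of at least 1 CPM and DESeq2, in place of 1, since Eomes lies at the threshold. Leaving out single libraries gave 2 to 4 factors for mCdx2-OE, 3 to 4 for rCdx2-OE, 1 to 2 for R13, 1 to 3 for R23 (1 without replicate 2 of WT), 2 to 3 for R1, R3 and the RMES mouse allele (the upper ends for mCdx2-OE, R23, R3 and the mouse allele include the rare Elf5, which entered without replicate 2 of mCdx2-OE, replicate 1 of R23, replicate 2 of R3 or the RMES rCdx2-OE library), and 5 for the rat allele and for the difference between alleles. Library totals in place of TMM would shift all log2 fold changes by 0.18 for mCdx2-OE and rCdx2-OE, 0.066 to 0.12 for the mutants, 0.42 on the RMES mouse allele and 0.21 on the rat allele.

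For peaks, windows of 10 and 100 kb gave 1 and 13 opened ATAC peaks (7 at 30 kb), 2 and 31 closed (8), 6 and 40 Cdx2 peaks in mESCs (13) and 3 and 20 in RMES cells (7). Without scaling, 11 opened and 5 closed, with a fold over 1.5 11 and 13, and without a minimum of reads 10 and 13. At least 50 reads left 3 Cdx2 peaks in RMES cells.

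Signs changed for values that passed no test. Most lay near 0, but Elf5 and Eomes, RMES against mESC, were -0.52 and 0.29. Tfap2a with change 2 was -0.013 with library totals and -0.013 to 0.034 leaving out a replicate. Tfap2c with mCdx2 was -0.018 with all genes, and -0.078 to 0.077 leaving out libraries. Leave-out ranges were -0.18 to 0.021 for Elf3 between mCdx2 and rCdx2, and, RMES against mESC, -1.32 to 0.024 for Elf5 and -0.038 to 0.57 for Eomes. Among the mutants they were -0.013 to 0.020 (Eomes) and -0.017 to 0.027 (Tfap2c) for change 1, -0.043 to 0.11 (Eomes) and -0.036 to 0.015 (Tfap2c) for change 2, and -0.0081 to 0.017 (Tfap2c) and -0.027 to 0.0084 (Elf3) for change 3.

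Deviations of same-numbered mESC libraries correlated at -0.14 to 0.45 over 45 pairs of groups (median -0.003), so the numbers were not taken to pair them. Among the 7 mutants the 21 correlations were 0.094 to 0.19, and in each mutant Cdx2 was higher in replicate 1 and Elf3 in replicate 2. A replicate block (for contrasts within the mutants chosen after seeing the data) left all 19 counts and the calls of single factors as they were, with 3 factors for mCdx2-OE, 4 for rCdx2-OE, 1 for change 3 and 3 for change 3 within the mutants. The tests have 2 libraries per group, and Elf5 is limited by its few counts. The chromatin data have no replicates.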
